A study of Drosophila melanogaster with 10 samples.

Results

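Male and female brains of the yw stock of Drosophila melanogaster were compared at the end of larval life, using the 4 yw libraries among the 10 libraries of the series. They were chosen by their labels: 2 libraries came from yw females and 2 from yw males. The yw stock carries mutant alleles of yellow and white in both sexes and, by label, 200 wild-type copies of the histone gene repeat, the usual number. The other 6 libraries came from 12xWT, a genotype with 12 repeats, with 3 libraries of each sex, and were used here for the shared estimate of spread and for a second measurement of the sex difference. Each library was made from polyA RNA of 25 pooled brains of wandering third-instar larvae, without other treatment. The labels do not say whether libraries of a group came from separate cultures, so p-values measure the spread between libraries, which may be technical.

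In flies, sex is set by the number of X chromosomes. In animals with a pair of X chromosomes the RNA-binding protein Sex-lethal (Sxl) is made, and it directs the splicing of transformer (tra), which in turn directs the splicing of doublesex and fruitless. Sxl also blocks translation of msl-2. In males, which have a single X, MSL2 protein joins MSL1, MSL3, the acetyltransferase MOF, the helicase MLE and the noncoding RNAs roX1 and roX2 in the dosage compensation complex, which binds the male X and raises transcription from it. Male Sxl and tra transcripts are made but carry exons that stop translation early. Counts per gene do not separate such splice forms.

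Counts assigned to genes came to 52.02 M and 56.16 M in the yw female libraries and 57.2 M and 61.52 M in the yw male libraries. Levels are counts per 1 M counts of a library (CPM). A count of 0 allows up to 0.0488 to 0.0577 CPM in these libraries, which covers counting error only. Libraries of the same sex differed beyond counting error (chi-square over its degrees of freedom 11.59 for the females and 8.84 for the males). In a principal component analysis of the 4 yw libraries, the first component held 46.2% of the variance and placed the females at -22.36 and -11.53 and the males at 13.36 and 20.53. Genes that mark neurons (elav, 1530 to 1670 CPM), glia (repo, 115 to 129 CPM) and neural stem cells (dpn, 13.2 to 13.4 CPM) were detected in all 4 libraries. Because whole brains were sampled, fewer cells of a type and less RNA per cell cannot be told apart. The summed level of the 8 tested Y-linked genes was 0 and 0.0356 CPM in yw females and 0.105 and 0.26 CPM in yw males, which is close to the limit of detection in every yw library.

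Regulators of sex were among the genes that differed. The noncoding RNA roX1 and the msl-2 transcript were higher in males, and Sxl and tra were higher in females. Log2 fold changes are given as males over females with a standard error (SE), and a gene was called where the adjusted p of edgeR's quasi-likelihood test, by the Benjamini-Hochberg method over all 11146 tested genes, was under 0.05. That rule called 0.807% of all tested genes.

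Among 10 tested genes of dosage compensation, 3 were called higher in males and 0 lower. All 10 fold changes were positive, with a median of 0.15 on the log2 scale against -0.001 over all tested genes. The roX1 RNA (FBgn0019661, dm6 chromosome X, 3857230 to 3862697, minus strand) had 308 and 446 CPM in females and 3140 and 2950 CPM in males. Males were 8.06-fold higher (log2 fold change 3.01, SE 0.29, edgeR adjusted p = 0.00864). The roX1 gene shares exonic bases with ec, and reads from such a pair cannot be told apart when strand is not used in counting. The second RNA, roX2 (FBgn0019660, X, 11579065 to 11580432, plus strand), had 0.0769 and 2.88 CPM in females and 65.3 and 67.8 CPM in males. The female libraries thus stood at 0.116% and 4.33% of the male mean for roX2, and at 10.1% and 14.6% for roX1. The spread of roX2 between the females was wide, and with a log2 fold change of 5.45 (SE 0.82) it missed the threshold (edgeR adjusted p = 0.0515). DESeq2 called it (adjusted p = 3.86e-04), as it did 1.59% of all genes with an adjusted p, and edgeR on the 4 yw libraries alone did not (adjusted p = 0.305). Without yw female replicate 2 the adjusted p for roX2 was 0.0358. Whether male tissue in that female library contributed to its roX2 signal was not tested.

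The gene msl-2 (FBgn0005616, 2L, 3462218 to 3466112, minus strand), which encodes the subunit that limits the complex to males, had 60.8 and 66.6 CPM in females and 157 and 152 CPM in males. The male level was 2.42-fold higher (log2 fold change 1.28, SE 0.1, edgeR adjusted p = 0.00399). The acetyltransferase gene mof (FBgn0014340, X, 5873840 to 5876853, minus strand) had 34.6 and 37.7 CPM in females and 49.6 and 47.4 CPM in males, 1.34-fold higher (edgeR adjusted p = 0.0481). Its neighbour CG3016, 146 bases away on the same strand, was lower in males, at 52.4 and 53.4 CPM against 64.7 and 64.8 CPM. For msl-3, a chromodomain subunit, females had 37 and 35.8 CPM and males 42.9 and 41.3 CPM (log2 fold change 0.21, edgeR adjusted p = 0.137). The values of msl-1, the scaffold subunit, were 101 and 102 CPM in females and 109 and 110 CPM in males (edgeR adjusted p = 0.497). The remaining subunit gene on the autosomes, mle, had a log2 fold change of 0.08 (edgeR adjusted p = 0.641). Male and female libraries did not overlap for msl-3 and msl-1, but neither was called.

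Among 23 tested genes of sex determination, 0 were called higher in males and 2 lower, Sxl and tra, and the median log2 fold change of the list was -0.05. Sxl (FBgn0264270, X, 7074550 to 7098056, minus strand) had 765 and 707 CPM in females and 286 and 331 CPM in males. The female level was 2.39-fold higher (log2 fold change -1.26, SE 0.15, edgeR adjusted p = 0.0145). The splicing regulator tra (FBgn0003741, 3L, 16590059 to 16591050, minus strand) had 25.4 and 25.8 CPM in females and 19.5 and 19.1 CPM in males, 1.33-fold higher in females (edgeR adjusted p = 0.0228). It was the only autosomal gene called lower in males, and it shares exonic bases with l(3)73Ah. The targets at the end of the cascade, fru and dsx, had log2 fold changes of -0.06 and -0.14 and were not called. The X-signal gene sc, which activates Sxl in the embryo, had 3.34 and 3.31 CPM in females and 1.94 and 2.24 CPM in males (edgeR adjusted p = 0.419).

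The sister gene of Sxl, ssx (FBgn0024987, X, 1370580 to 1375257, plus strand), which encodes a closely related RNA-binding protein, changed in the opposite direction. It had 222 and 221 CPM in females and 339 and 322 CPM in males, 1.49-fold higher in males (log2 fold change 0.57, SE 0.054, edgeR adjusted p = 0.00399). A list of genes downstream of sex determination in other tissues, with dmrt99B, dmrt93B and dmrt11E added, held 10 tested genes. Of these, 0 were called in either direction.

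**Figure D1:**
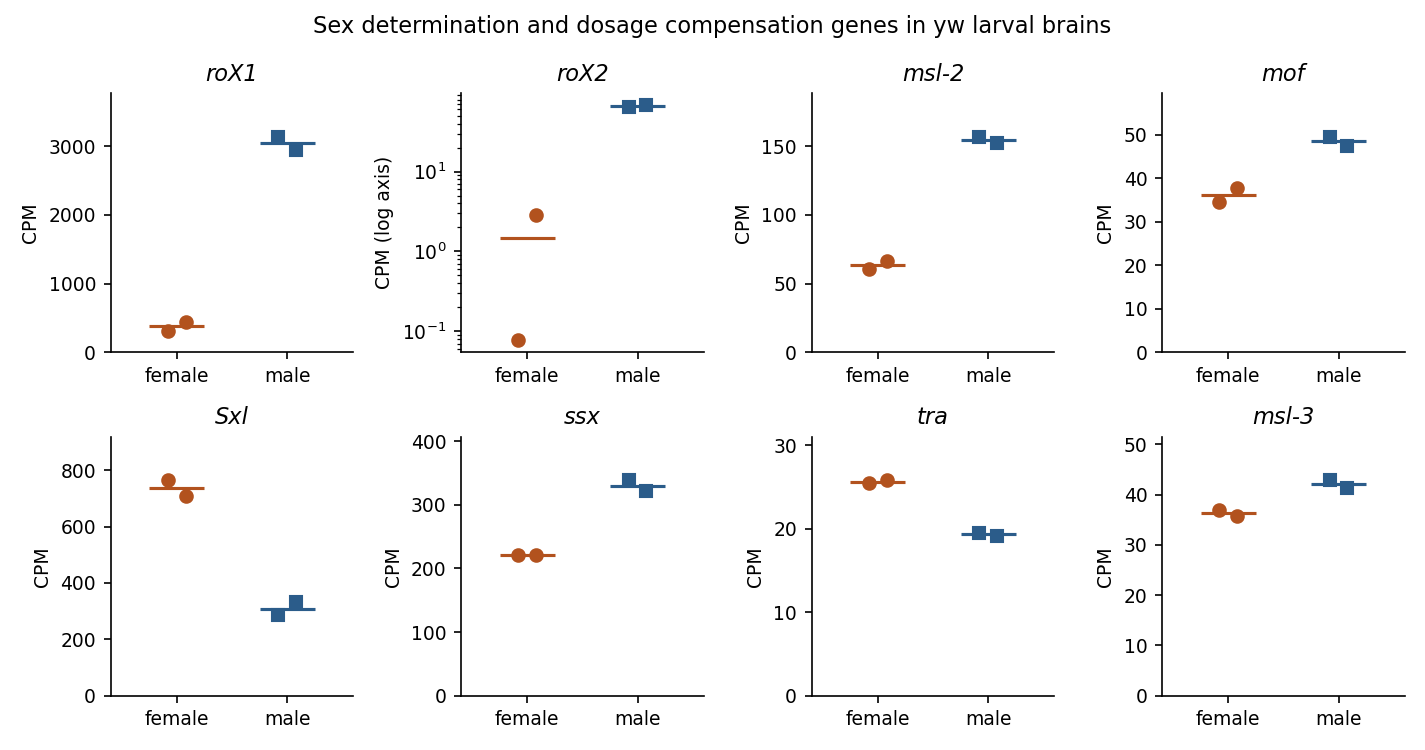
Levels in CPM of 8 genes in each yw library, with circles for the 2 females, squares for the 2 males and a horizontal line for each group mean; the axis for roX2 is logarithmic and the others start at 0. roX1, roX2, msl-2, mof, ssx and msl-3 lie above the females in both male libraries, Sxl and tra lie below them, and the female values of roX2 are 0.0769 and 2.88 CPM.

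Over all 11146 tested genes, 49 were called higher and 41 lower in males, or 0.44% and 0.368%. Of these 90 genes, 80 were on the X chromosome, 40 in each direction. That was 4.24% of the 1886 tested X-linked genes. On arms 2L, 2R, 3L and 3R, 10 of 9156 tested genes were called (0.109%), 9 higher and 1 lower in males. By edgeR, 0 of the 96 tested genes of chromosome 4 and 0 of the 8 tested on the Y were called, 7 and 2 of them had an unadjusted p under 0.05, and DESeq2 called 1 and 0. The edgeR fit of the 4 yw libraries alone called 1 gene of chromosome 4. Of the 90, 82 encode proteins and 8 are noncoding RNAs, and 32 share exonic bases with another gene. Without yw female replicate 1, 0 genes were called, with a smallest edgeR adjusted p of 0.0751 and 705 genes at an unadjusted p under 0.05. Without another library the counts fell too, to 19 higher and 12 lower without yw female replicate 2, 7 and 2 without yw male replicate 1, and 20 and 6 without yw male replicate 2. Over these 4 fits msl-2 and ssx were called in 3, roX1 in 2, and Sxl, tra and mof in 0.

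Called X-linked genes in the 2 directions differed in size. Those higher in males had a median absolute log2 fold change of 0.77, and 17 of 40 changed at least 2-fold. Those lower in males had a median of 0.36, so that the male level was 77.8% of the female level, and 7 of 40 changed at least 2-fold. A mean of at least 10 CPM was reached by 33 of the 40 lower genes and 21 of the 40 higher genes. Their median levels were 44.9 and 14.6 CPM. The contrast of sizes holds for called genes only, and its dependence on level was not tested. Among all 1495 X-linked genes with a mean of at least 1 CPM, 53 were lower and 32 higher by at least 0.5 on the log2 scale. By at least 1, 12 were lower and 10 higher.

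**Figure D2:**
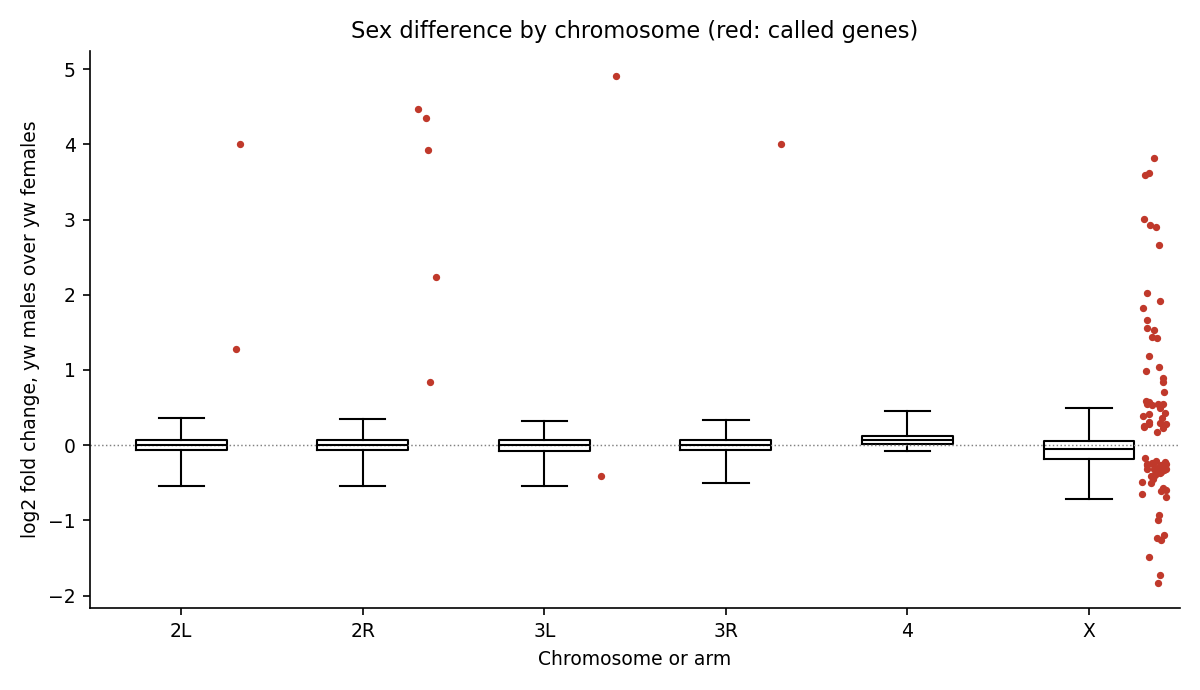
Log2 fold change of yw males over yw females for tested genes of each chromosome or arm; boxes span the quartiles with the median, whiskers the 5th and 95th percentiles, and red points are called genes (the 8 Y-linked genes are not drawn, and the highest points rest on few female counts). Of 90 called genes, 80 are on the X, and the X whiskers lie at -0.71 and 0.51.

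X-linked genes had slightly lower values in males as a whole. The median log2 fold change was -0.05 over X-linked genes and 0.003 over the 4 large autosomal arms, a difference of -0.057. Set per pair of a male and a female library, the difference lay between -0.067 and -0.047. Values below 0 were found for 62.5% of X-linked and 48.6% of autosomal genes. Both male libraries lay below both female libraries for 748 X-linked genes, or 39.7%, and above them for 377, or 20%. Over all tested genes the same shares were 19.8% below and 19.6% above. With the 1302 X-linked genes that share no exonic base with another gene, the median was -0.053, 28 were called lower and 23 higher.

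The shift was seen in each class of level. For X-linked genes with a mean of 1 to 10, 10 to 100 and at least 100 CPM the medians were -0.06, -0.04 and -0.04, against 0.01, 0.01 and 0 for autosomal genes. Under 1 CPM they were -0.17 and -0.08. Along the X, in windows of 2 Mb, medians ran from -0.09 to 0. The window from 10 to 12 Mb, which holds roX2, had a median of 0 over 196 genes, with 7 called higher and 1 lower. The window from 2 to 4 Mb, which holds roX1, had a median of -0.06 over 169 genes, with 5 called in each direction. The window from 6 to 8 Mb, which holds Sxl, had a median of -0.08 over 172 genes, with 0 called higher and 4 lower.

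Larger differences were also more frequent on the X. Among genes with a mean of at least 1 CPM, 252 of 1495 X-linked genes (16.9%) were lower in males by at least 0.2 on the log2 scale, and 328 of 6991 autosomal genes (4.69%). The shares higher by at least 0.2 were 7.96% and 3.8%. A change of at least 1 on that scale, which is 2-fold, was found downward for 0.803% of X-linked and 0.215% of autosomal genes and upward for 0.669% and 0.1%. These shares describe fitted values, with no test. As background, a single X without compensation would correspond to a value of -1.

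**Figure D3:**
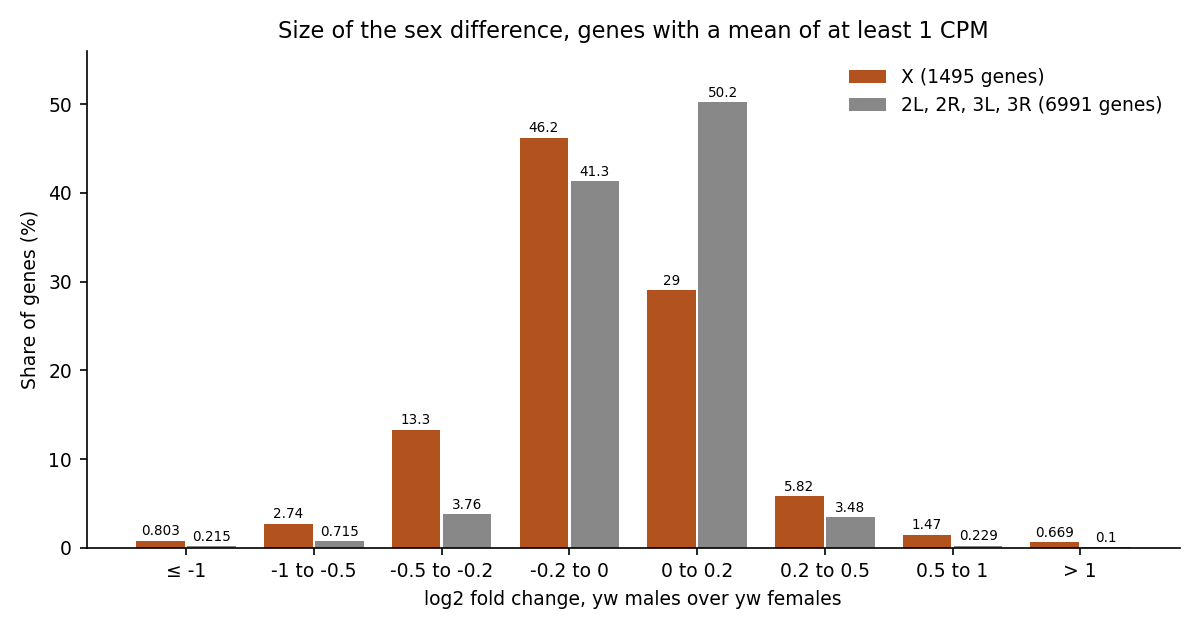
Share of genes, in percent, in classes of log2 fold change of yw males over yw females, for X-linked genes and genes of arms 2L, 2R, 3L and 3R with a mean of at least 1 CPM. The largest class is -0.2 to 0 for the X (46.2%) and 0 to 0.2 for the autosomes (50.2%), and 0.803% of X-linked genes lie at or below -1.

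As a single value per library, the median level per kb of exon of X-linked genes was divided by that of genes on the 4 large autosomal arms. This ratio was 1.17 in each yw female library and 1.11 and 1.14 in the males, or 1.17 ± 0.000241 (SD, n = 2) and 1.12 ± 0.0196 (SD, n = 2). The male mean was lower by 0.0488, with a two-sided exact permutation p of 0.333, the smallest that 2 against 2 libraries allow. The X held 19.3% and 19.1% of all counts in the females and 18.6% in each male. In 12xWT the ratio was 1.14 to 1.15 in females and 1.06 to 1.11 in males. Chromosome 4, which has a chromosome-wide regulatory protein of its own, had a median log2 fold change of 0.06. Its male libraries lay above the females for 39 of 96 genes and below for 2, against 19.6% and 19.8% of all tested genes.

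Of the 10 largest called rises that met a rule on level, 7 were on the X, some of them in genes with little signal in females. Only called genes were ranked, which leaves out roX2. Their mean had to reach 1 CPM in the higher sex without overlap between libraries. Over all chromosomes, 38 called genes higher in males and 40 lower met this rule. The TRP channel gene brv3 had 0.115 and 0.231 CPM in females and 1.47 and 1.22 CPM in males (log2 fold change 2.92, edgeR adjusted p = 0.00521); it shares bases with Seipin. The fucosyltransferase gene FucTC had 0.846 and 0.57 CPM in females and 2.94 and 2.11 CPM in males (log2 fold change 1.83, edgeR adjusted p = 0.012). It overlaps the noncoding RNA CR45009, which was also called higher in males, with a log2 fold change of 1.91. The neighbours CG32706 and CG6999, 293 bases apart, were both higher, at 2.25 and 2.17 against 6.78 and 5.28 CPM and at 0.788 and 1.09 against 3.09 and 2.36 CPM. Their log2 fold changes were 1.44 and 1.53. The last X-linked gene of this group, CG3706, had a log2 fold change of 2.66 and shares bases with CG32815.

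The X-linked rises with the smallest p were ssx, CG6041, CG2145, CG32706 and fs(1)Yb. The piRNA pathway gene fs(1)Yb, known from somatic cells of the ovary, had 0.115 and 0.107 CPM in females and 0.857 and 0.829 CPM in males (log2 fold change 2.9, edgeR adjusted p = 0.00521). CG6041 had 8.04 and 8.74 CPM in females and 15.1 and 15 CPM in males, and its overlapping neighbour CG32756 was also higher, with a log2 fold change of 0.55. CG2145 had 13.6 and 15.4 CPM in females and 23.9 and 23.4 CPM in males. Another called neighbour lies next to a dosage compensation gene: nod, a chromosome-binding kinesin-like gene, starts 339 bases past the end of roX2 on the same strand. It had 15.4 and 17 CPM in females and 23.6 and 23.3 CPM in males (edgeR adjusted p = 0.0102).

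X-linked genes with smaller rises included several of known function. The heterochromatin genes Hmr and HP5 had log2 fold changes of 0.28 and 0.31. The DNA repair scaffold gene XRCC1 rose by 0.43, and the vesicle-fusion gene car, first known for eye colour, by 0.23. The genes prtp, a ligand of the engulfment receptor, and gd, a serine protease of embryonic axis formation, had values of 0.18 and 0.59. For jb, 1 count was found in each female library and 24 and 10 in the males, a ratio of 15.5 with a 95% exact counting interval of 3.97 to 133.

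Among called genes on the X, the largest falls were in fs(1)M3, an eggshell gene known from the ovary, the noncoding RNA CR45668, and CG13361. For fs(1)M3 females had 1.52 and 0.872 CPM and males 0.28 and 0.39 CPM (log2 fold change -1.83, edgeR adjusted p = 0.038). CR45668 (X, 5882480 to 5899989) had 10.2 and 10.7 CPM in females and 2.55 and 3.79 CPM in males (log2 fold change -1.72, edgeR adjusted p = 0.0314). It shares bases with CG16721 and lies in the same stretch as mof and CG3016. CG13361 was at 1.21 and 0.872 CPM in females and 0.297 and 0.439 CPM in males. Among the 10 largest falls under the rule on level, which leaves out y, 5 were noncoding RNAs. They were CR45668, CR44470, CR43264, CR43837 and CR45621, with log2 fold changes of -1.72 to -0.6. CR44470 and CR45621 also share bases with another gene, CG2652 and CG2543. The 10 largest falls were completed by Sxl, CG3587 and CG3939.

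The falls with the smallest p were small and even between replicates. CG32521 (X, 21205310 to 21281171, minus strand) had 303 CPM in each female library and 238 and 233 CPM in males (log2 fold change -0.37, SE 0.038, edgeR adjusted p = 0.00399). CG3587 had 13 and 12.8 CPM in females and 8.39 and 7.67 CPM in males (log2 fold change -0.69, edgeR adjusted p = 0.00545). CG11590, CG8611 and lawc had log2 fold changes of -0.6, -0.5 and -0.57. The gene lawc shares bases with Trf2, and 744 bases from it lies CG11190, which was higher in males with a value of 0.24.

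Several other called X-linked genes of known function were lower in males by less than 2-fold. The acetylcholine receptor subunit gene nAChRalpha3 had 74.6 and 74.2 CPM in females and 59.3 and 59.8 CPM in males (log2 fold change -0.32, edgeR adjusted p = 0.00965). The transcription factor gene ewg had 383 and 346 CPM in females and 310 and 304 CPM in males (edgeR adjusted p = 0.0481). The adhesion gene kirre, the secreted signal fog and the MAP kinase kinase gene Dsor1 had log2 fold changes of -0.31, -0.32 and -0.17. The chromatin remodelling subunit gene Bap60 and the ubiquitin ligase subunit gene skpA had values of -0.23 and -0.25. AMPdeam, which deaminates AMP, and mei-9, a nuclease of DNA repair, had values of -0.32 and -0.3. The yellow gene y, mutant in this stock, fell further, with 0.807 and 0.819 CPM in females and 0.385 and 0.309 CPM in males (log2 fold change -1.23).

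On the autosomes, msl-2 and tra were joined by 8 further genes, all higher in males. CG18467 (2R, 17440297 to 17442483, plus strand) had 8.46 and 7.99 CPM in females and 15.6 and 14 CPM in males, 1.8-fold higher (edgeR adjusted p = 0.00763). The other 7 had at most 0.196 CPM in any female library. Among them were 4 genes of odorant-binding proteins, which carry hydrophobic molecules outside cells. Obp56h had 2 counts in each female library and 39 and 31 in the males, a ratio of 15.9 with a 95% exact counting interval of 5.96 to 60.2. Obp56d had 2 counts in each female and 47 and 48 in the males, a ratio of 21.6 (8.18 to 81.1). Obp56c had 1 count in each female and 30 and 24 in the males, a ratio of 24.6 (6.49 to 208). These 3 genes lie on 2R, all within the same stretch of that arm, and the fourth, Obp49a, lies elsewhere on it, at 0.192 and 0.196 CPM in females and 1.35 and 0.52 CPM in males. CG14456 had 0.0192 and 0.142 CPM in females and 2.71 and 2.39 CPM in males (log2 fold change 4.91, edgeR adjusted p = 0.0343). CG14277 had a log2 fold change of 4.01, resting on at most 0.0769 CPM in a female library. In the 12xWT libraries Obp56c was at 0 CPM and Obp56h at up to 0.0762 CPM. CG14456 had medians of 0.0698 CPM in 12xWT females and 0.0751 CPM in 12xWT males. Obp56c, Obp56h and CG14456 thus passed the filter on counts through the yw males, where they are high, so their calls give no separate support. The counting intervals leave out the spread between libraries.

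The last autosomal gene was Sgs5, a glue protein gene of the salivary gland, at 0.173 and 0.0712 CPM in females and 1.78 and 2.18 CPM in males (edgeR adjusted p = 0.0373). Over the 7 glue gene markers the summed level was 2.36 and 2.01 CPM in females and 9.88 and 10.1 CPM in males. All 6 tested had positive values, with a median of 2 on the log2 scale. Sgs3 had 0.5 and 0.445 CPM in females and 4.23 and 3.41 CPM in males (edgeR adjusted p = 0.0641). DESeq2 called Sgs3, Sgs5 and Sgs7, and edgeR on the 4 yw libraries alone called these and Sgs4. The part of salivary gland RNA in the low-level rises was not tested.

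Lists of brain cell markers held no called gene. Of 16 neuroblast, 16 neuron, 11 glia, 13 optic lobe and 26 cell cycle genes tested with edgeR, 0 were called and 2, 1, 2, 2 and 1 had an unadjusted p under 0.05, and DESeq2 and edgeR on the 4 yw libraries alone called 0 as well. Median log2 fold changes were -0.0025 for neuroblast, 0.08 for neuron, -0.02 for glia, -0.06 for optic lobe and 0.01 for cell cycle genes. The glial glutamine synthetase gene Gs2, at 109 and 158 CPM in females and 209 and 233 CPM in males, had the largest value among glial genes, with a log2 fold change of 0.73 (edgeR adjusted p = 0.486).

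Hormone and stress genes had mostly negative values, and whether any was called depended on the test and on which libraries gave the spread. The edgeR fit of all 10 libraries called 0 of them, while a fit of the 4 yw libraries alone called 3 of 14 ecdysone, 2 of 13 insulin and 5 of 10 heat shock genes, all lower in males, against 1.98% of all genes it tested. In the list of the steroid ecdysone, which times the moults, 12 of 14 genes had negative values, 8 with males below females in every library (19.8% of all tested genes), and the median was -0.14. Hr4, an ecdysone-induced nuclear receptor gene on the X, had 212 and 195 CPM in females and 116 CPM in each male (log2 fold change -0.81, edgeR adjusted p = 0.348, and 4.14e-05 in the 4 yw libraries alone). In 12xWT its log2 fold change was 0.12. Eip78C, another such receptor gene, had 42.2 and 39.3 CPM in females and 28.5 and 24.8 CPM in males (edgeR adjusted p = 0.444, and 0.00322 in yw alone). Of 13 insulin pathway genes, 12 had negative values, with a median of -0.09. Ilp6, an insulin-like peptide gene on the X, had 35.2 and 33 CPM in females and 23 and 24.4 CPM in males (edgeR adjusted p = 0.0622, and 0.00144 in yw alone). Ilp2, made by the insulin-producing cells of the brain, had 39.5 and 43.6 CPM in females and 28 and 33 CPM in males (edgeR adjusted p = 0.497, and 0.0359 in yw alone).

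All 10 tested heat shock genes had negative values, 9 with males below females in every library (19.8% of all tested genes), and their median was -1.33. The small chaperone gene Hsp26 had 200 and 173 CPM in females and 101 and 98.7 CPM in males (edgeR adjusted p = 0.647, and 0.00117 in yw alone). Hsp70Bb had 6.54 and 3.01 CPM in females and 0.787 and 0.423 CPM in males (edgeR adjusted p = 0.136, and 0.167 in yw alone). The Hsp70 genes are near-identical copies, so their separate counts are uncertain, and Hsp70Aa, Hsp70Ab and Hsp22 were at 0 in all 4 yw libraries. In the edgeR fit of all libraries, 5 of 14 ecdysone, 2 of 13 insulin and 3 of 10 heat shock genes had an unadjusted p under 0.05. Over all tested genes that share was 8.63%. DESeq2 over all 10 libraries called Eip78C, Ilp6, Hsp23, Hsp70Bb and Hsp70Bbb lower in males, against 1.59% of all genes called in either direction.

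Markers of other tissues differed between libraries of a sex. The larval serum protein gene Lsp2 of the fat body had 33.1 and 15.3 CPM in females and 10.5 and 2.28 CPM in males, and Fbp1 had 62.7 and 31.1 against 15 and 2.02 CPM. The 9 fat body genes summed to 1060 and 964 CPM in females and 922 and 902 CPM in males, with a median log2 fold change of -2.13. Of them 7 had negative values, and Rfabg and ppl had values of 0.01 and 0.06. None was called (smallest edgeR adjusted p = 0.715), and none had an unadjusted p under 0.05. The part of attached tissue in any of these values was not tested. No gene was called among 10 ring gland, 9 eye disc, 7 imaginal disc, 13 muscle, 6 trachea, 5 cuticle, 8 hemocyte, 8 germline, 4 spermatocyte and 9 antimicrobial peptide genes by edgeR over all libraries or by DESeq2, and 1, an imaginal disc gene, had an unadjusted p under 0.05. In the 4 yw libraries alone edgeR called the hemocyte genes PPO1 and PPO2 higher in males (adjusted p = 0.013 and 0.00393) and none of the others tested. The 8 spermatocyte genes summed to 8.13 to 8.69 CPM, and the defining gene aly was at 0 in every yw library.

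**Figure D4:**
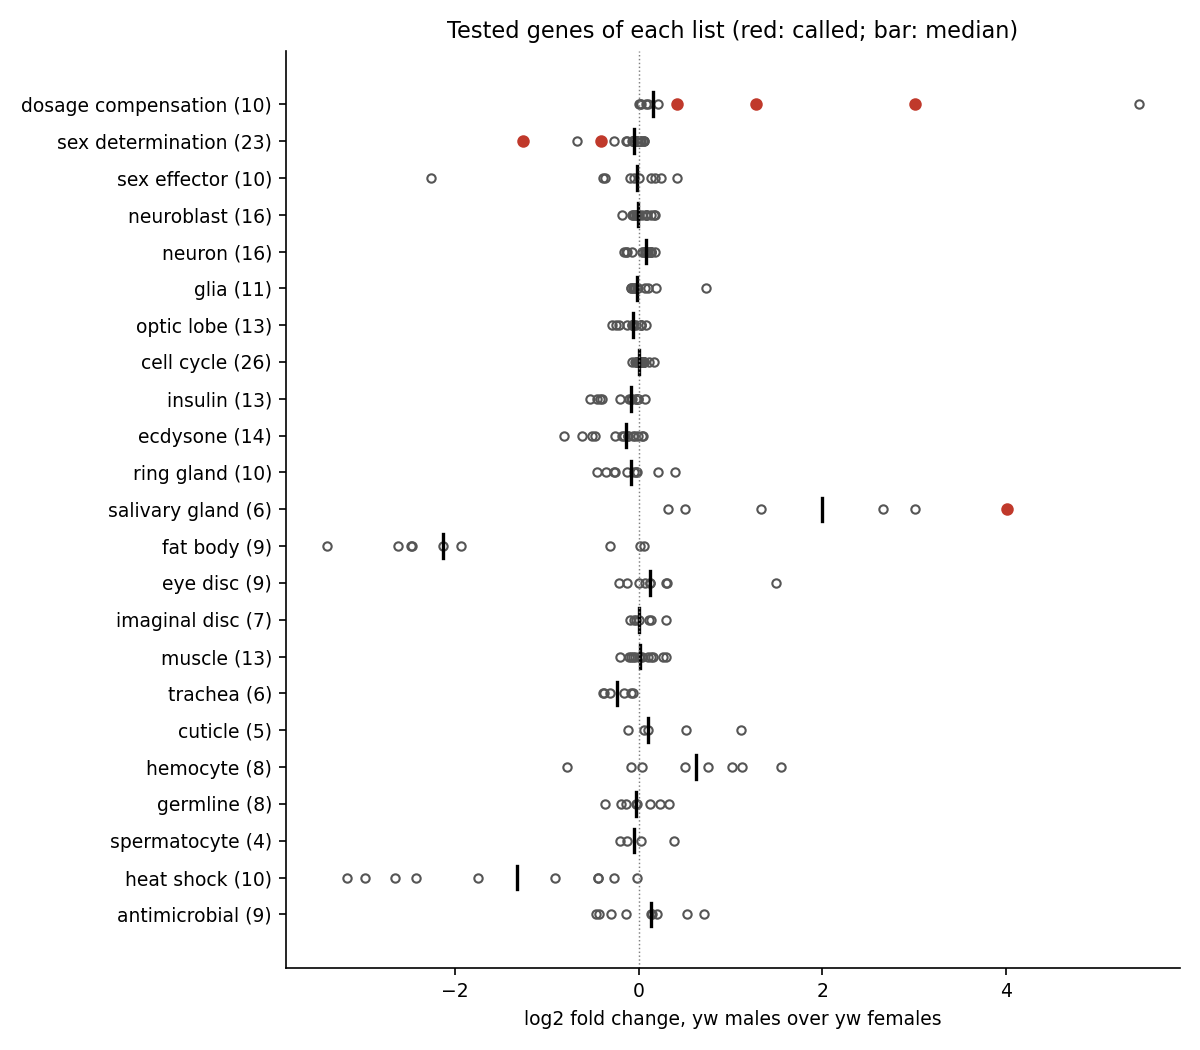
Log2 fold change of yw males over yw females for each tested gene of 23 lists, with the number tested in parentheses; red points are called genes and bars are medians. Of all lists, dosage compensation, sex determination and salivary gland hold called genes, and fat body and heat shock medians lie at -2.13 and -1.33 with 0 genes called over all 10 libraries.

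The sex difference was then measured in 12xWT. The fold changes of each genotype came from its own libraries, but the 12xWT libraries shared in the estimate of spread behind the yw calls. Of the 90 genes called in yw, 84 (93.3%) had the same sign in 12xWT, against 54.6% of all tested genes and 71.9% of those on the X. On the X it was 78 of 80, and on the autosomes 6 of 10. All 90 were smaller in 12xWT. Their median in the yw direction was 0.23 there and 0.56 in yw, where they had been selected. Only msl-2 and ssx were called in both, out of 6 genes (0.0538%) called in 12xWT, 2 higher (0.0179%) and 4 lower (0.0359%) in males.

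In 12xWT the regulators of sex kept their direction with smaller values. roX1 ranged from 585 to 958 CPM in 12xWT females and from 1950 to 2530 CPM in 12xWT males, a log2 fold change of 1.57 against 3.01 in yw. roX2 ranged from 7.34 to 15.1 CPM and from 35.7 to 48 CPM, a value of 1.99 against 5.45. For msl-2 the values were 0.75 and 1.28, and for Sxl -0.83 and -1.26. The sexes did not overlap in either genotype for these 4 genes. In yw, males lay above females in every library for 19.6% of all tested genes and below for 19.8%. The sexes also did not overlap there for any of the 90 called genes, which include roX1, msl-2 and Sxl. The share for 12xWT is not given here. The genes with the opposite sign in 12xWT included Obp56d, Obp49a, CG14277, y and kirre.

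Levels of roX2 and of Y-linked genes also differed between the females of the genotypes. The sum over the 8 tested genes of the Y was 4.77, 17.9 and 4.39 CPM in their replicates 1 to 3, against 19.8 to 22.8 CPM in 12xWT males, and replicate 2 stood apart. These sums exceed those of the yw males, 0.105 and 0.26 CPM, so they do not mark males across the genotypes. Their roX2 level was 11% to 22.7% of the yw male mean. Without 12xWT female replicate 2, the values in 12xWT were 1.79 for roX1, 2.34 for roX2, 0.83 for msl-2 and -0.88 for Sxl, 85 of the 90 genes had the same sign, and all 90 were still smaller. Whether the 12xWT female libraries contained RNA of males was not tested.

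The difference of the sex effect between genotypes was tested directly, and edgeR called 0 genes, with 456 at an unadjusted p under 0.05 and 11 called by DESeq2. The smallest edgeR adjusted p was 0.111, for baz, a polarity gene of neural stem cells on the X. In yw baz had 79.7 and 77.7 CPM in females and 78.7 and 81.4 CPM in males (log2 fold change 0.02), and in 12xWT 47.6 to 49.9 CPM in females and 32.6 to 36.6 CPM in males (log2 fold change -0.51). CG43921 and the kinase gene Sik2, also X-linked, had values of -0.16 and -0.11 in yw and -0.6 and -0.62 in 12xWT (edgeR adjusted p of the difference = 0.138 for each).

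**Figure D5:**
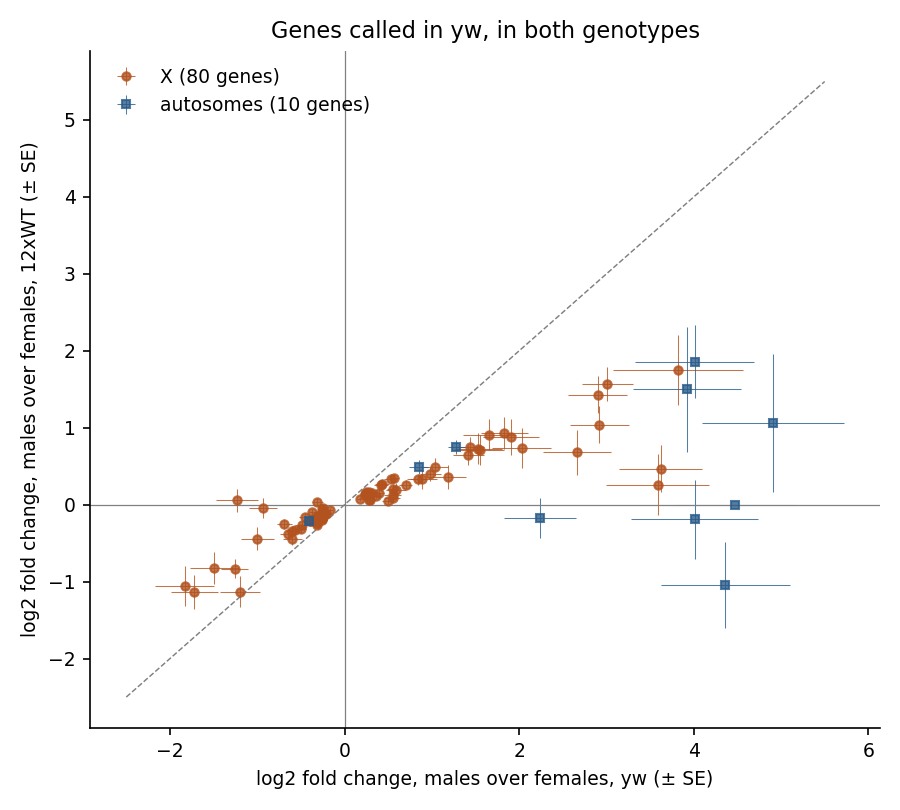
Log2 fold change of males over females in 12xWT against that in yw for the 90 genes called in yw, with SE bars; circles are X-linked, squares autosomal, and the dashed line marks equal values. Of the 90 points, 84 have the same sign in both genotypes and all lie nearer 0 on the 12xWT axis; the values at the right, above 3.5, rest on few female counts.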

How the data were processed

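PolyA RNA of larval brains was sequenced in 10 libraries made with a stranded mRNA kit, per the labels. The authors deposited counts of read pairs per gene from featureCounts in Subread 2.0.1, run over exons of the dm6 annotation in paired-end mode, without options for strand or for reads that map to several places, per the file headers. Alignment used STAR 2.7.7a and SAMtools 1.9, per the submitters' processing notes. Counting without strand lets overlapping genes share or lose reads, and 5346 of 16727 genes share exonic bases with another gene. A deposited table of the authors' own genotype comparison was not used here. Of the names, 5 had become dates and were restored by position, 16512 genes have a FlyBase identifier, and 0 count columns were left unmatched.

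Counts as deposited were analysed with edgeR 4.0.16 and limma 3.58.1 in R 4.3.3, with DESeq2 1.42.0 as an alternative, and with pandas 2.3.3, numpy 2.4.6, scipy 1.17.1 and matplotlib 3.10.9. Filtering by filterByExpr over the 4 groups left 11146 genes of 15327 with a count, and those removed held up to 0.016% of any library. The model had a mean per genotype and sex over all 10 libraries (6 residual degrees of freedom), TMM factors between 0.985 and 1.02 and robust quasi-likelihood dispersion, with a common biological coefficient of variation of 8.73%. The contrast was yw male minus yw female, with Benjamini-Hochberg adjustment and a threshold of 0.05. CPM is counts per 1 M counts without TMM, and an SE is the absolute log2 fold change over the root of F. Where a sex had at most 3 counts in every library, the ratio of counts is given with an exact 95% interval, which covers counting error only. The script was tested on simulated counts.

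The gene lists (279 genes in 23 lists, 2 unmatched, 15 found under another symbol), the comparison and the rule for named genes were chosen with earlier results of these data known. The rule takes the 10 largest called changes in each direction (libraries not overlapping, and 1 CPM or more on average in the higher sex), the 5 autosomal genes and the 5 X-linked genes per direction with the smallest p, the 3 with the smallest p for the difference between genotypes, and list genes. Other called genes were named for their known function after their values were seen. Alternatives covered scaling, filters, test, libraries, fold size, exon overlap and a replicate block. Leaving out 12xWT female replicate 2 was added after seeing the data.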

Additional observations from a re-analysis of the deposited data

How the results depend on the processing

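All 90 called genes kept their direction under each alternative in which they were tested, and the X-to-autosome difference of medians kept its sign. Counts of called genes, against 49 higher and 41 lower in males (on the X 40 and 40), moved by over 1.5 times as follows. A change of at least 1.5-fold left 31 and 12 (X 22 and 12). DESeq2 called 76 and 101 (X lower 84), and a fit of the 4 yw libraries alone 85 and 124 (X lower 85). Genes that share no exonic base gave 20 and 15 (X 15 and 15). Without 12xWT female replicate 2 there were 34 higher and 20 lower (X 30 and 18). Leaving out each yw library gave 0 to 20 higher and 0 to 12 lower, and on the X 0 to 18 and 0 to 10. In these fits 8 genes were called in 3 of 4 (ssx, CG32521, msl-2, CG6041, CG2145, CG32706, fs(1)Yb and CG11158), 0 in all 4, and 55, among them Sxl, tra and mof, in 0. With the lone library of a sex assumed to vary like the other groups, the cause of these losses was not tested beyond the smaller number of libraries. roX1 was not called in the 4 yw libraries alone (edgeR adjusted p = 0.082).

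A replicate block on the replicate numbers left 26 higher and 15 lower (X 21 and 13). The correlation of same-numbered yw libraries was 0.05, which gave no sign of pairing by number. With 2 libraries of each sex this cannot exclude pairing. The X-to-autosome difference of medians, -0.057, was -0.045 without a filter on low counts. The X-to-autosome ratio of males minus that of females, -0.0488, was -0.0627 to -0.035 when a library was left out. From summed CPM it was -0.00877, which is on a smaller scale. That ratio of sums was 0.245 and 0.242 in the yw females and 0.235 in each yw male. The difference of the sex effect between genotypes, 0 genes in edgeR, was called for 11 by DESeq2, 3 without a filter on low counts and 0 to 2 when a yw library was left out. Uncalled genes changed sign for Hml (-0.51 to 1.88 over the fits leaving out a yw library) and fru (-0.13 to 0.02), both without yw male replicate 1, and baz (-0.0033) without yw female replicate 2. With 2 libraries of each sex, small differences of low-level genes were not detectable.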

Other observations

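Called genes on the X followed each other by start position in several places, with no other tested gene starting between them. In 8 of 11 such pairs both genes moved in the same direction. In the other 3, mof with CG3016, CG11190 with lawc and CG13361 with CG5273, they moved in opposite directions. Of the same-direction pairs, kirre with CG32795, fog with CG42346, CG32756 with CG6041 and CR45009 with FucTC overlap in span. CG32756 with CG6041 and CR45009 with FucTC also share exonic bases, so their counts are not independent. Whether neighbouring X-linked genes in general move together was not tested. CG14219 and CG14205, which lie 2438 bases apart, were near the limit of detection in females, at 0.0384 and 0.089 CPM and at 0.0577 and 0.0712 CPM. In males they had 0.804 and 0.797 CPM and 0.979 and 0.666 CPM. Their log2 fold changes in 12xWT were 0.26 and 0.47, against 3.59 and 3.62 in yw. CG12177 and CG11158, which lie 2451 bases apart, both had values near 1 on the log2 scale (0.89 and 0.98).

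In the hemocyte list, the prophenoloxidase genes PPO1 and PPO2 serve melanization. In females against males PPO1 had 1.79 and 2.05 against 4.35 and 3.46 CPM, and PPO2 5.57 and 6.32 against 10.6 and 9.44 CPM. Neither was called over all 10 libraries (edgeR adjusted p = 0.656 and 0.629), while both were in the 4 yw libraries alone. Of the 8 genes of this list, 6 had positive values and 2 negative ones, NimC1 (-0.78) and crq (-0.09), and Pxn was at 0.03. The list summed to 162 and 154 CPM in females and 180 and 153 CPM in males. The odorant-binding protein gene Obp99b had 11 and 4.52 CPM in females and 2.66 and 0.601 CPM in males, the reverse of the 4 called genes of that family, and was not called (edgeR adjusted p = 0.752).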
